A study of Homo sapiens with 3 samples.

Results

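Small nucleolar RNA (snoRNA) host genes are described here on 3 arrays of HEK293T cells. The set has 10 listed genes: SNHG1, SNHG3, SNHG5, SNHG6, SNHG7, SNHG8, SNHG12, SNHG15, GAS5 and ZFAS1. A gene was taken as measured where a probe set carries its symbol and no other, and the probe set with the highest mean was used. This held for 7 of the 10, out of 22395 genes measured in all, and each of the 7 has 1 such probe set. SNHG3, SNHG6 and SNHG7 are named only on probe sets shared with other genes, so their readings are given apart and enter no count. The genes were chosen with their log2 levels on all 3 arrays known, and each probe set was selected on its mean level over them, so the levels are a description and support no test.

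HEK293T is an established cell line, derived from human embryonic kidney and expressing SV40 large T antigen. All 3 cultures were proliferating cells infected with a pCDF1 lentivirus and selected in puromycin. One received the empty vector, one wild-type TRAF7 and one the TRAF7 G536S mutant. TRAF7 is an E3 ubiquitin ligase, and each group has 1 array and no replicate. A difference between arrays therefore also holds any difference between cultures, RNA extractions and hybridisations, and no p-value or standard error can be given. Whether each line was a pool or 1 clone is not given in the sources used here.

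Most of these hosts make a spliced RNA with little coding capacity, and the snoRNAs are cut out of its introns. Box C/D snoRNAs guide ribose methylation and box H/ACA snoRNAs guide the formation of pseudouridine, mainly in ribosomal RNA. The spliced host RNA often begins with a run of C and T, the terminal oligopyrimidine (TOP) start of genes for the translation machinery. Many host RNAs are engaged by ribosomes and removed by nonsense-mediated decay (NMD), so that the spliced RNA and its snoRNAs can have very different lifetimes. GAS5 was named for its accumulation in growth-arrested cells.

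The start regions of the measured hosts are shown so that their letters can be compared with the TOP start described above. RefSeq promoter sequences of GRCh38.p14 were found for 6 of the 7 (all but SNHG15). Each line runs from 50 bases before the annotated start to 30 bases from it. Capitals mark TATAA, searched from 40 to 20 bases before the start, and a C followed by at least 4 letters that are each C or T, beginning within 5 bases of the start.
SNHG1 (chr11:62855856-62855935, minus strand): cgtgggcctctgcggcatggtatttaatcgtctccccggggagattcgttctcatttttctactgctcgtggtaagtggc
SNHG5 (chr6:85678704-85678783, minus strand): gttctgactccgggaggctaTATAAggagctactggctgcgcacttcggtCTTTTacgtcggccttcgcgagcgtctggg
SNHG8 (chr4:118278712-118278791, plus strand): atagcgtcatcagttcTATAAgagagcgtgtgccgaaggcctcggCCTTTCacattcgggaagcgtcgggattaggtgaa
SNHG12 (chr1:28581844-28581923, minus strand): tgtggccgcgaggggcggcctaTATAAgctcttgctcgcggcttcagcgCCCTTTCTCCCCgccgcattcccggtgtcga
GAS5 (chr1:173869016-173869095, minus strand): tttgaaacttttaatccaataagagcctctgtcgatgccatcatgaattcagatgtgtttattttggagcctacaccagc
ZFAS1 (chr20:49278592-49278671, plus strand): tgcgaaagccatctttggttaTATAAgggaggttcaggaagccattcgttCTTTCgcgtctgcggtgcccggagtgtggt

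SNHG5, SNHG8, SNHG12 and ZFAS1 hold both features, and SNHG1 and GAS5 hold neither as so defined in these windows. The rule is strict and only 1 annotated start per gene was searched. A host without a match is therefore not shown to lack a TOP start. TATAA begins 28 bases before the start in SNHG12, 29 in ZFAS1, 30 in SNHG5 and 34 in SNHG8. The C and T run begins at position 1, the annotated start, in SNHG5 and ZFAS1. It begins at position -1 in SNHG12 and at position -5 in SNHG8. In SNHG8 most of the run therefore lies before the annotated start, and only its last letter is on it. Of all 35116 promoters in the table, 3.91% hold TATAA there, 21.1% hold such a C and T run and 0.832% hold both. On the other strand (TTATA) the share is 1.73%, and 1 of the 6 hosts, ZFAS1, has that match, which overlaps its TATAA. The motifs were chosen after the sequences had been seen, and a match describes letters only.

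All values are log2 levels per probe set, and a difference is one array minus another. Levels of different genes are not compared, because each probe set has its own response. TRAF7 itself, whose level can tell the empty vector from the constructs but not wild type from the point mutant, stood at 5.66 in the empty vector array, 8.11 with wild type and 7.35 with G536S. It was thus highest with wild type, whereas the host RNAs below were highest with G536S. Genes passing the filter were those with a mean of at least 1.21 over the arrays, 11198 in number, and all 7 measured hosts pass it. The empty vector array was lower than the others over these genes as a whole. The median difference was 0.08 for wild type and 0.10 for G536S. The medians and ranges of the hosts' differences from that array are therefore also given relative to this median. Over all probe sets that array instead had the highest median, 1.04 against 1.02 with wild type and 1.01 with G536S. The offset thus differed with level, and subtracting a median does not fully remove it. Of 6 markers listed for the line, 4 passed the filter: CDH2 (4.54 to 4.71), NEFL (5.62 to 6.26), VIM (4.34 to 5.10, higher by 0.75 with wild type than with the empty vector) and, at its edge, KRT18 (1.18 to 1.26). KRT8 (0.85 to 0.98) and NEFM (0.89 to 1.16) were below it. Endothelial markers did not pass it (0 of 3). Of the leukocyte markers 2 of 5 did, CD68 (2.37 to 2.46) and CD79A (1.18 to 1.48). Of the fibroblast markers 1 of 4 did, COL1A1 (2.47 to 2.60). The summed linear levels of these 3 lists were 5.55 to 5.71, 12.7 to 14.0 and 11.1 to 11.8. For the 6 markers of the line the sum was 108 to 142. The lists differ in number of markers, so their sums are not compared with each other. In bulk RNA, fewer cells expressing a gene and less RNA per cell cannot be told apart.

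In the deposited values, every measured host had its lowest level with the empty vector and its highest with G536S. This order (empty vector, wild type, G536S) was found in 7 of 7 hosts (6 of 7 after quantile normalization, where SNHG1 with wild type fell level with the empty vector) and in 26.5% of all genes passing the filter. With G536S, 3 of 7 hosts were at least 1.5-fold above the empty vector (a difference of 0.58 or more), against 6.07% of all genes. These were SNHG8, SNHG15 and GAS5. None was 1.5-fold lower, against 2.08% of all genes. After quantile normalization the host counts were the same, and 3.15% of all genes were higher and 4.45% lower.

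**Figure D1:**
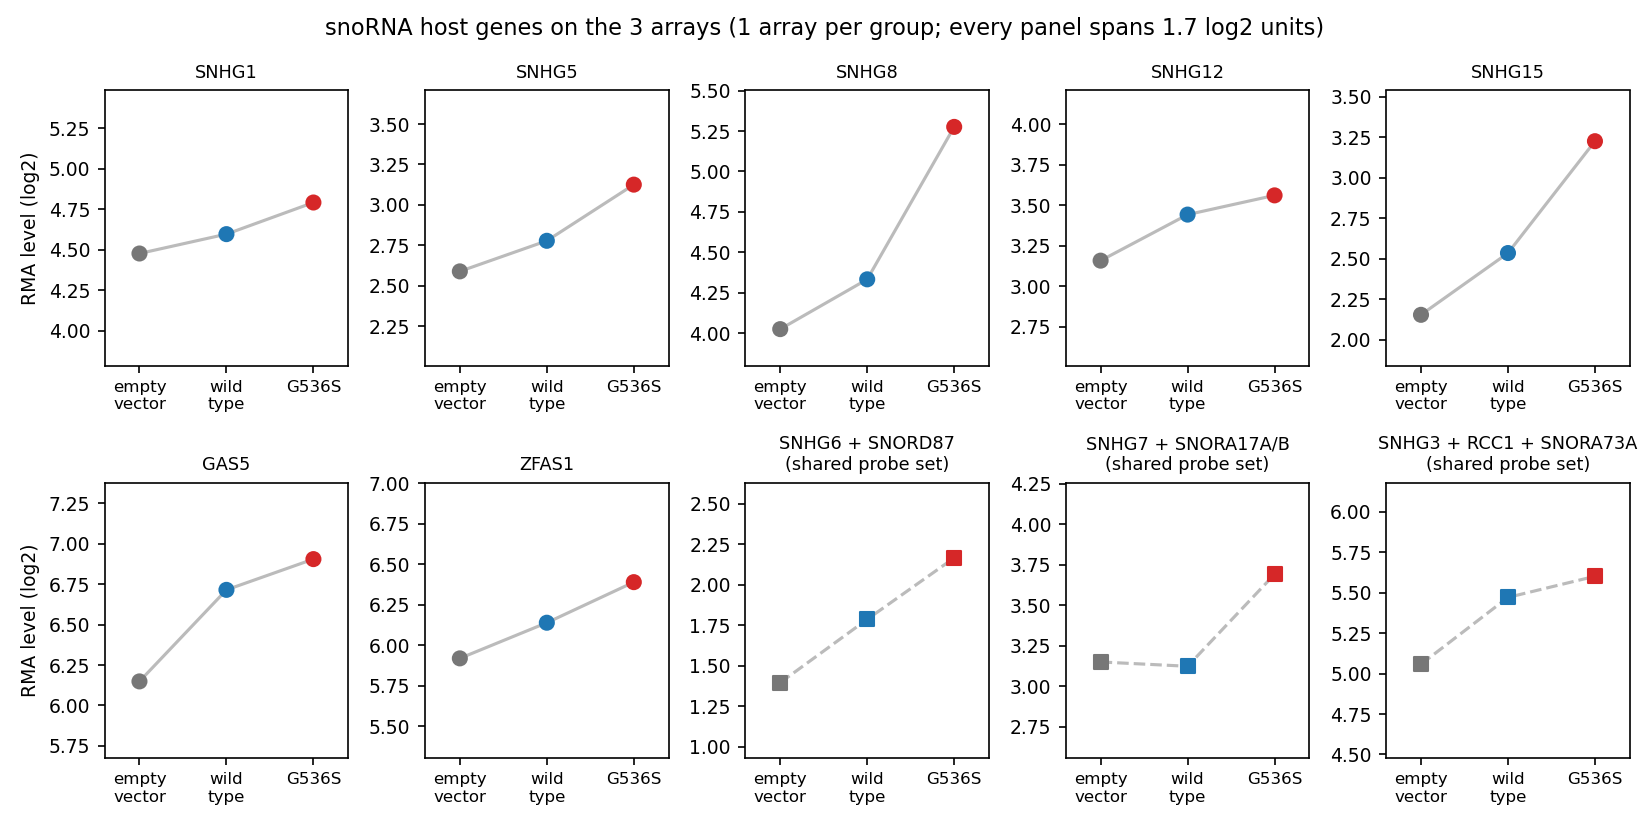
RMA level (log2) on each of the 3 arrays for the 7 hosts with a probe set of their own (circles, solid lines) and for probe sets shared by SNHG6, SNHG7 or SNHG3 with other genes (squares, dashed lines). Each panel has its own position and the same height of 1.7 log2 units; lines only join the arrays. In these deposited values all 7 hosts run upward from the empty vector to G536S, steepest for SNHG8 and SNHG15; after quantile normalization SNHG1 was level between the empty vector and wild type.

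With G536S, the 2 measured hosts that carry only box H/ACA snoRNAs had the largest differences of the 7. These are 2 genes, grouped with their levels known, and a relation to snoRNA class was not tested. Outside the 7, DANCR, the host of SNORA26, was 0.37 above the empty vector with G536S. SNHG8, which carries SNORA24 in an intron, read 4.03 in the empty vector array, 4.33 with wild type and 5.28 with G536S. The G536S array stood apart from both others. The difference from the empty vector was 1.25 (2.38-fold) with G536S and 0.31 (1.24-fold) with wild type, and G536S exceeded wild type by 0.94 (1.92-fold).

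SNHG15, the host of SNORA9 and known as a short-lived RNA, read 2.15 in the empty vector array, 2.53 with wild type and 3.23 with G536S. It had the same shape as SNHG8, with the larger step between wild type and G536S. G536S was above the empty vector by 1.07 (2.10-fold) and above wild type by 0.69 (1.61-fold), and wild type was above the empty vector by 0.38 (1.30-fold). A second probe set, shared by SNORA9 and SNHG15, read 5.34, 5.41 and 6.13 in the same array order. It too was highest with G536S, by 0.79 over the empty vector and 0.72 over wild type, but wild type was only 0.07 above the empty vector on it.

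Hosts of box C/D snoRNAs alone differed by 0.19 to 0.35 between the constructs. GAS5, which carries 10 of the listed snoRNAs, read 6.15 in the empty vector array, 6.71 with wild type and 6.90 with G536S. Both TRAF7 arrays were well above the empty vector and close to each other. The difference was 0.57 (1.48-fold) with wild type, just below the 1.5-fold line, and 0.76 (1.69-fold) with G536S, and the constructs differed by 0.19 (1.14-fold). A probe set shared by GAS5 and its antisense gene GAS5-AS1 read 0.97, 0.85 and 0.94, below the filter level, and adds no reading of GAS5.

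ZFAS1, the host of SNORD12, SNORD12B and SNORD12C, read 5.92 in the empty vector array, 6.14 with wild type and 6.39 with G536S. Its steps were of about equal size, 0.22 (1.16-fold) from empty vector to wild type and 0.25 (1.19-fold) from wild type to G536S. G536S was 0.47 (1.39-fold) above the empty vector.

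SNHG5, which carries SNORD50A and SNORD50B, read 2.59 in the empty vector array, 2.78 with wild type and 3.13 with G536S. The total difference of 0.54 (1.45-fold) was the nearest below the 1.5-fold line, and 0.35 (1.27-fold) of it lay between the constructs. SNHG1, which holds 8 of the listed snoRNAs, read 4.48, 4.60 and 4.79 in the same array order. It had the smallest difference with G536S of the 7 hosts, 0.32 (1.24-fold), and with wild type, 0.12 (1.09-fold).

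SNHG12 carries snoRNAs of both classes. It read 3.16 in the empty vector array, 3.44 with wild type and 3.56 with G536S. As in GAS5, most of the difference was already present with wild type (0.28, 1.22-fold), and G536S exceeded wild type by 0.12 (1.09-fold), the smallest such step of the 7 hosts.

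The median of the 7 hosts was 0.28 (1.22-fold) for wild type against the empty vector, beside 0.08 for all genes passing the filter. No host was 1.5-fold higher or lower, against 5.42% and 1.79% of all genes (3.1% and 3.42% after quantile normalization). SNHG1 lay above 56.1% of all genes in this comparison and GAS5 above 94.2%, so the hosts were spread through the upper part of the distribution. For G536S against the empty vector the median was 0.54 (1.45-fold), beside 0.10 for all genes. Here the hosts ranged from SNHG1, above 78.3% of genes, to SNHG8, above 99.7%. Relative to the median gene, the host median was 0.20 with wild type, from 0.04 (SNHG1) to 0.48 (GAS5), and 0.44 with G536S, from 0.22 (SNHG1) to 1.15 (SNHG8). Both comparisons share the single empty vector array, so that any shift particular to that array enters both.

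G536S and wild type can be set against each other without the empty vector array. All 7 hosts were higher with G536S, against 51.4% of all genes, with a median of 0.25 (1.19-fold) beside 0.01 for all genes. SNHG8 and SNHG15 were 1.5-fold higher, 2 of 7 against 2.17% of all genes, and none was 1.5-fold lower, against 1.81%. The other hosts lay between SNHG12, above 68.8% of genes, and SNHG5, above 91.1%. Over the 409 long non-coding RNA genes that passed the filter, to which the hosts belong, the median was 0.01, and 3.18% were 1.5-fold higher.

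**Figure D2:**
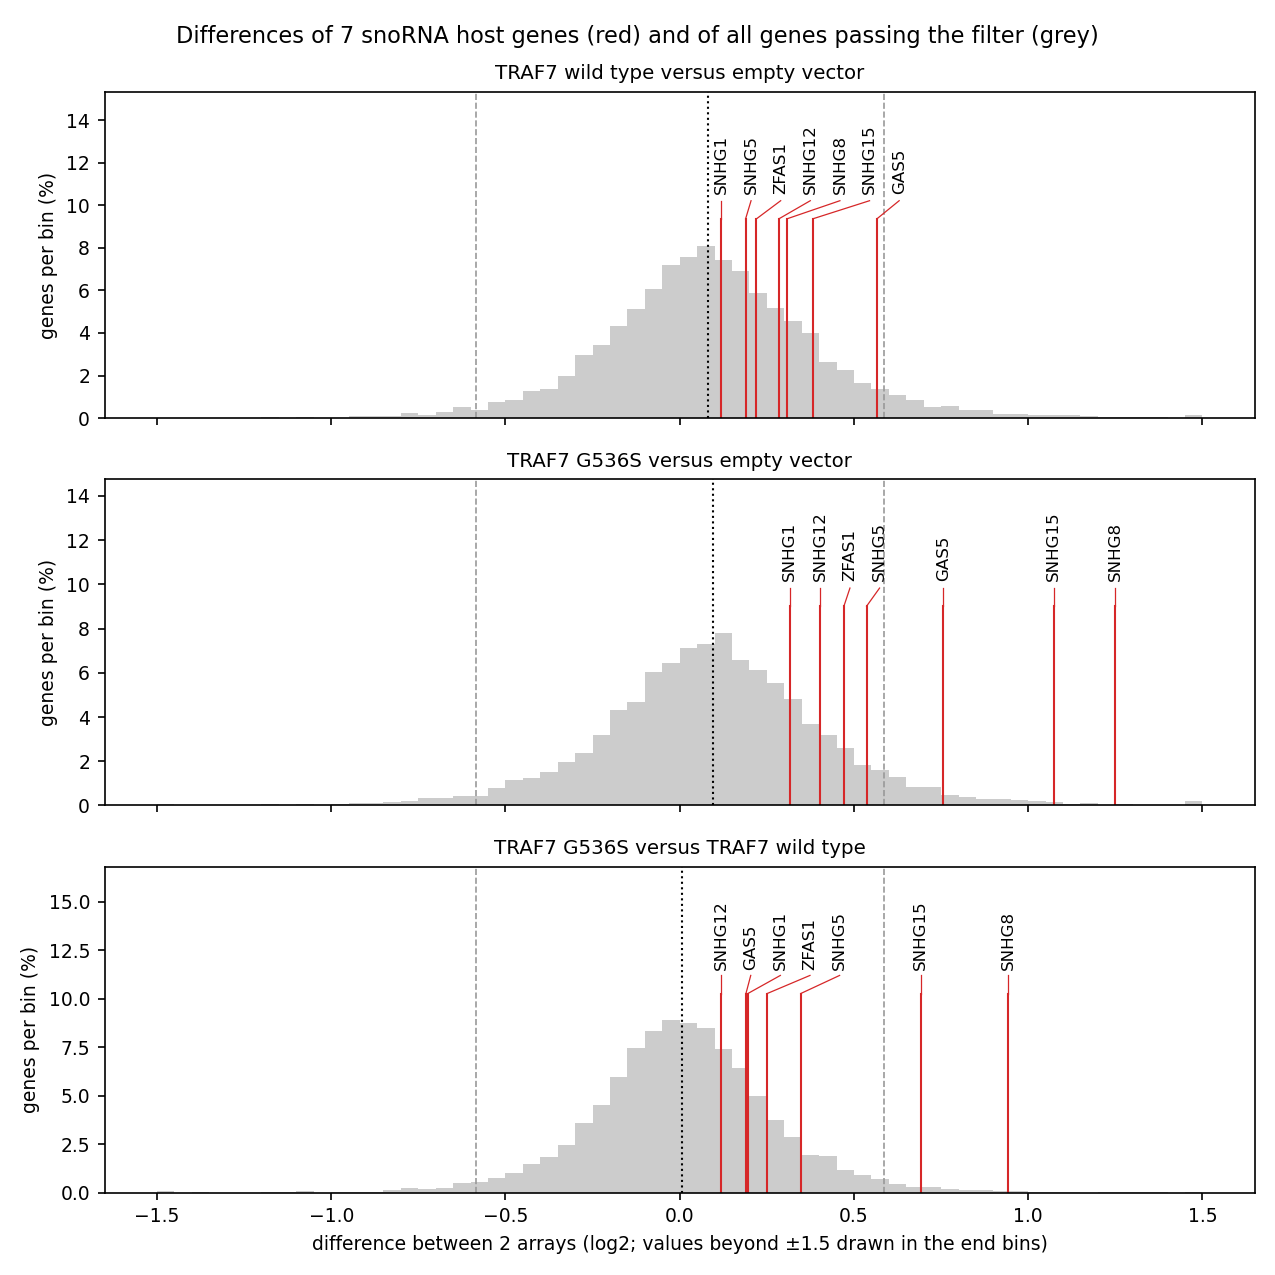
Log2 difference between 2 arrays for the 7 hosts (red lines, labelled) over a histogram of the 11198 genes passing the filter (grey, percent of genes per bin), 1 panel per comparison. Dotted lines mark the median gene and dashed lines 1.5-fold; all 7 hosts lie right of the median gene in each panel, and SNHG8 and SNHG15 lie past 1.5-fold in both panels with G536S.

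The 3 hosts without a probe set of their own were read only together with other genes. The probe set shared by SNHG6 and SNORD87 read 1.39 in the empty vector array, 1.79 with wild type and 2.17 with G536S. It shows the same order as the measured hosts, with a difference of 0.77 for G536S against the empty vector. The probe set of SNHG7, SNORA17A and SNORA17B read 3.15, 3.12 and 3.69 in that array order. There only G536S stood above, by 0.54 over the empty vector and 0.57 over wild type. Of 2 probe sets that name SNHG3, the one shared with RCC1, a neighbouring chromatin-binding exchange factor, and SNORA73A read 5.06, 5.47 and 5.60. The other, shared with SNORA73A alone, read 1.05, 1.03 and 1.40. Which RNA these probe sets read was not determined.

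Of the 34 snoRNAs listed as lying in introns of the 10 hosts, 7 have a probe set of their own, from SNHG8, SNHG12, GAS5 and ZFAS1. With G536S, 6 of these 7 were at least 1.5-fold above the empty vector, with a median difference of 1.09, and with wild type 2 were (0 after quantile normalization or cyclic loess), with a median of 0.51. None was 1.5-fold lower in either. Over the 6 that pass the filter, which leaves out SNORD99, 5 were 1.5-fold higher with G536S (median 1.14) and 2 with wild type. The shares over all genes passing the filter were 6.07% and 5.42%. The whole class was also high: of 116 snoRNA genes passing the filter, 50% were 1.5-fold higher with G536S than with the empty vector and 37.9% than with wild type, with medians of 0.59 and 0.47. With wild type 17.2% were 1.5-fold above the empty vector. A difference above 0 with G536S against the empty vector was found in 86.2% of the class, so that the snoRNAs of these hosts were high along with most others on the arrays. The part of this class-wide difference in the levels of the hosts was not tested.

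Within single hosts, the probe sets named for the host and for the snoRNA differed by unlike amounts. Whether they read the spliced host RNA, its unspliced form or the free snoRNA was not determined. SNORA24 read 4.43 in the empty vector array, 5.02 with wild type and 5.62 with G536S. Its difference of 1.19 with G536S was close to that of its host SNHG8 (1.25), but with wild type it was 0.60 against 0.31. In GAS5, SNORD75 read 4.61, 4.85 and 5.35 and SNORD78 7.94, 8.45 and 9.02 in that array order. With G536S, SNORD75 was 0.74 above the empty vector, near the host's 0.76, and SNORD78 was 1.09 above. Between the constructs, where GAS5 itself differed by 0.19, SNORD75 differed by 0.50 and SNORD78 by 0.58.

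ZFAS1 showed the widest spread among snoRNAs of 1 host. SNORD12 read 3.94, 4.54 and 5.13, and SNORD12B read 3.09, 3.61 and 4.39, from empty vector to G536S. Both exceeded the host's difference of 0.47 with G536S, at 1.19 and 1.30. SNORD12C read 4.73 in the empty vector array, 4.41 with wild type and 4.46 with G536S. It was the only one of the 7 snoRNAs below the empty vector with either construct, at -0.32 and -0.27, although it is cut from the same transcript. SNORD99, from SNHG12, read 0.71, 0.95 and 1.66. Its mean is below the filter level, and its difference of 0.95 with G536S compares with 0.40 for the host.

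**Figure D3:**
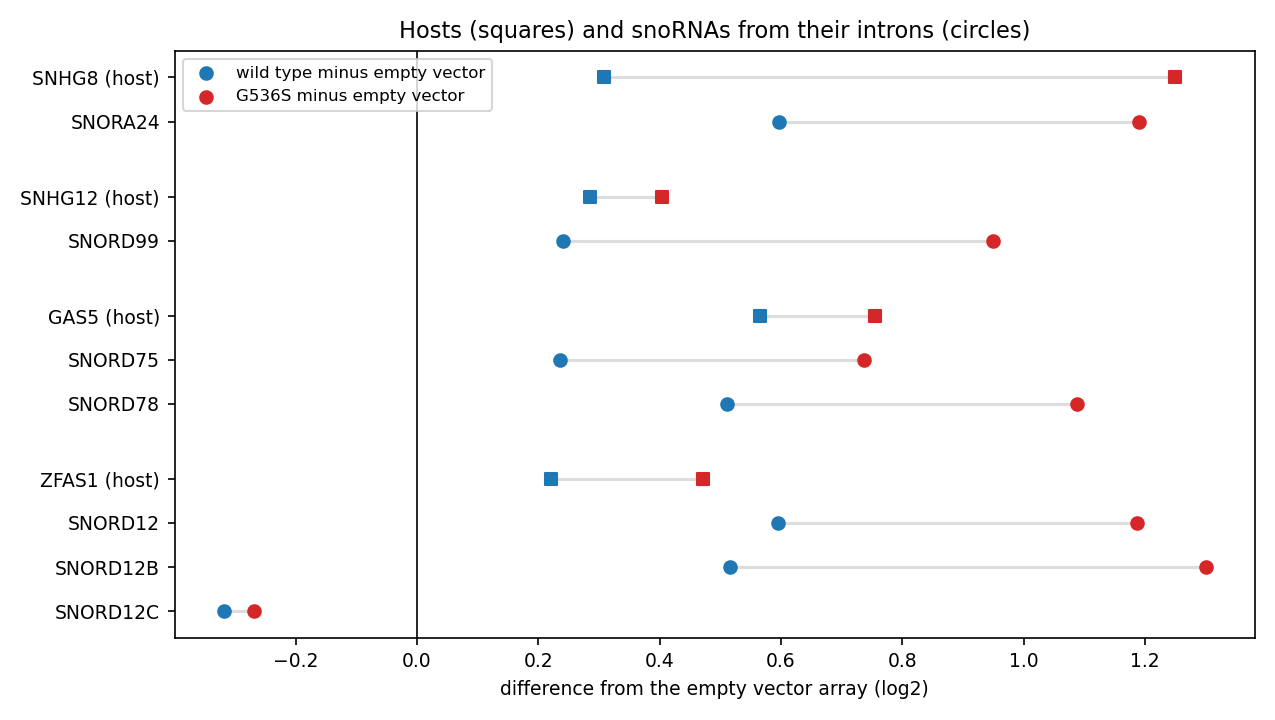
Log2 difference from the empty vector array for 4 hosts (squares) and the 7 snoRNAs of their introns that have a probe set of their own (circles), with wild type in blue and G536S in red; a grey line joins the 2 values of a gene. SNORD12, SNORD12B, SNORD78 and SNORD99 lie further right than their hosts with G536S, and SNORD12C lies left of 0.

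Of 18 other non-coding hosts listed, 9 were measured and 7 passed the filter, and none of the 9 reached 1.5-fold in either direction in the 3 comparisons. Over the 7 that passed, the median was 0.16 for G536S against the empty vector and 0.12 for wild type, beside 0.10 and 0.08 for all genes passing the filter. Between the constructs it was 0.21 with 5 of 7 above 0, beside 0.01 for all genes and 0.25 for the hosts described here. Over all 9 measured, which adds SNHG18 (-0.01) and MEG8 (-0.07) below the filter, it was 0.06. SNHG16 read 6.77, 6.73 and 6.94 from empty vector to G536S. SNHG17 read 3.86, 3.48 and 3.79, and was lowest with wild type. SNHG19 read 4.41, 4.16 and 4.71, so that it also dipped with wild type, and its step of 0.55 between the constructs was the nearest of this list to 1.5-fold. DANCR, the host of SNORA26, read 2.46, 2.61 and 2.83, in the same order as the hosts described above.

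Protein-coding genes that carry snoRNAs had a median of 0.22 for G536S against the empty vector over 16 measured of 40 listed. Of these, 2 of 16 were 1.5-fold higher, against 6.07% of all genes. TPT1, a TOP gene for a translationally controlled growth protein, was higher by 0.88. The ribosomal protein gene RPL32, at 1.90 in the empty vector array and 2.49 with G536S, was higher by 0.59, just past the 1.5-fold line. RPL12, also ribosomal, was 1.49-fold (0.58) above the empty vector. It was the only one of the 16 past 1.5-fold against wild type (0.70), where 2.17% of all genes were 1.5-fold higher. TOMM20, a mitochondrial import receptor, was lowest with G536S, at -0.42 against either of the other arrays. With wild type against the empty vector none was 1.5-fold apart, where 5.42% of all genes were higher and 1.79% lower. WDR43, a ribosome biogenesis factor, was at 0.45 and the import receptor TNPO2 at -0.42.

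For genes of proteins that bind or assemble with snoRNAs, 15 of 17 were measured. The median was 0.08 for G536S against the empty vector and 0.01 for wild type. With each construct 2 of 15 were 1.5-fold above the empty vector, against 6.07% of all genes with G536S and 5.42% with wild type. None was 1.5-fold apart between the constructs, where 2.17% of all genes were higher and 1.81% lower. GAR1, a core protein of H/ACA particles, read 2.11, 2.70 and 2.93 from empty vector to G536S. That is 0.59 and 0.82 above the empty vector. NUFIP1, an assembly factor of C/D particles, read 2.84, 3.45 and 3.44 and was nearly the same with both constructs. NOP58, a core protein of C/D particles, read 8.64, 8.77 and 8.82. NHP2 and NOP10 were 0.34 and 0.37 above the empty vector with G536S, and ZNHIT3 was 0.40 above wild type. Others went down: RUVBL2 read 7.88, 7.94 and 7.58, lowest with G536S, and NOLC1 read 7.89, 7.65 and 7.69, lowest with wild type.

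NMD factors were measured because the decay pathway acts on many host RNAs. Of 15 listed, 11 were measured and 0 of them reached 1.5-fold in the 3 comparisons. Over all genes the shares higher and lower were 6.07% and 2.08% with G536S against the empty vector. They were 5.42% and 1.79% with wild type, and 2.17% and 1.81% between the constructs. A count of 0 among 11 is near these shares. The median of the 11 was -0.03 with wild type and 0.11 with G536S against the empty vector. UPF1, the central helicase of the pathway, read 6.93 in the empty vector array, 6.50 with wild type and 6.67 with G536S. SMG5, which promotes dephosphorylation of UPF1, read 6.08, 5.52 and 5.95. Both were lowest with wild type, at -0.43 and -0.56 against the empty vector. The exonuclease XRN1 and the exon junction protein MAGOH went the other way with wild type, at 0.40 and 0.38. Genes for translation factors and other TOP genes had a median of 0.13 for G536S against the empty vector and 0.02 against wild type over 12 measured of 19. TPT1 alone of these 12 was 1.5-fold above the empty vector with G536S, against 6.07% of all genes. In that comparison 9 of the 12 were above 0, and EEF1D was lowest at -0.35. None was 1.5-fold apart between the constructs, where 2.17% of all genes were higher and 1.81% lower. There 6 of the 12 were above 0. TPT1 (0.57) and FAU (0.46) were highest and PABPC1 (-0.44) and EEF1D (-0.38) lowest. The activity of NMD and of TOP translation was not measured.

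**Figure D4:**
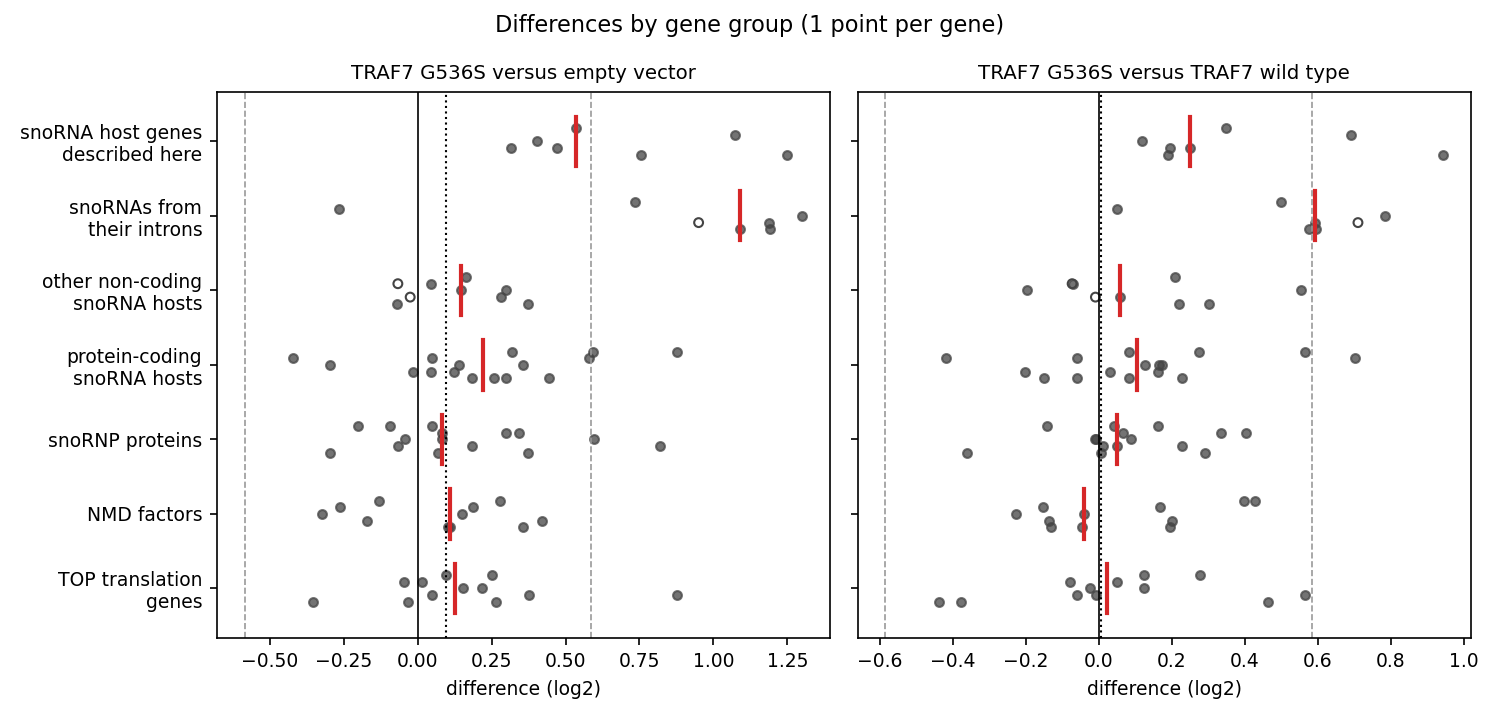
Log2 difference for each measured gene (1 point per gene, open where it did not pass the filter) by gene group, for G536S against the empty vector and against wild type. Red bars mark the median of the group, dotted lines the median of all genes and dashed lines 1.5-fold; the host genes described here and the snoRNAs from their introns have medians of 0.54 and 1.09 on the left, and the other groups lie between 0.08 and 0.22.

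The neighbours on the other strand found in the promoter table, which is not complete, had other patterns than their hosts. Whether the transcripts of a pair overlap or run apart was not examined. Within 1000 bases on the other strand, SNHG1 has SLC3A2, the heavy chain of amino acid transporters (224 bases between starts), and GAS5 has ZBTB37, a zinc finger gene (665 bases). SLC3A2 read 6.68 in the empty vector array, 6.82 with wild type and 6.52 with G536S, so that it was lowest where SNHG1 was highest. ZBTB37 read 1.91, 2.49 and 2.28. It shared the step of GAS5 with wild type (0.58 against 0.57) but was below wild type with G536S (-0.21), where GAS5 was above it.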

How the data were processed

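Per the submitters' processing notes, the authors made the deposited log2 values with RMA, a method of background correction, between-array normalization and probe summary. They cover 53617 probe sets on 3 Affymetrix arrays. The log base was inferred from the values (highest 12.57). For RMA's version and the array's build: not given in the sources used here. With 1 array per group no test was possible, and the number of arrays limits precision.

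The platform annotation names 1 gene for 23871 probe sets and several for 1842; the other 27904 are unnamed here. Symbols were updated through Entrez IDs in a RefSeq table of GRCh38.p14 (22572 matched, 90 changed). The filter was the median of gene means. Members and lists were chosen with earlier results of these data known, and which snoRNA lies in which host came from general knowledge. Named were all members and their probe sets, their snoRNAs, neighbours on the other strand with starts within 1000 bases, TRAF7 and markers. From each list, genes were named out of the 4 per comparison with the largest absolute differences, not always all 4.

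Alternatives were the mean of probe sets, no filter, a stricter filter (75th percentile, 2.87), quantile normalization and cyclic loess (limma 3.58.1, R 4.3.3), median centring and a floor (25th percentile, 0.86). Counting shared probe sets was added after seeing the data. Python 3.11.15, numpy 2.4.6, pandas 2.3.3 and matplotlib 3.10.9 did the rest, and counting was tested on simulated data.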

Additional observations from a re-analysis of the deposited data

How the results depend on the processing

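Each host has 1 probe set and lies above the floor, so only the 3 rescalings (quantile, cyclic loess, centring) could move its differences. Of 63 differences under these, 62 kept their sign and their side of 1.5-fold; SNHG1 for wild type against the empty vector was -0.00020 after quantile normalization, and the order from empty vector to G536S then held in 6 of 7 hosts (16.1% of all genes). Quantile normalization moved the median gene by -0.11 (wild type) and -0.13 (G536S) in the comparisons with the empty vector; relative to it the host medians were then 0.16 and 0.40. The filter at the 75th percentile kept 5 hosts, since SNHG5 and SNHG15 lie below it. It left 1 of the 5 1.5-fold higher with G536S than with wild type, against 2.18% of all genes passing that filter. Against the empty vector it left 2 of the 5 1.5-fold higher with G536S, against 6.54%. Taking for each listed host its highest probe set, shared or not, gave 4 of 10 readings 1.5-fold above the empty vector with G536S. SNHG15 was then read on the probe set shared with SNORA9. Which RNA the shared probe sets read was not determined, and no share over all genes was computed for this setting. SNORA24 and SNORD12 sat at the 1.5-fold line for wild type against the empty vector and between the constructs, and fell under it after quantile normalization and cyclic loess, and between the constructs also after centring. No paired analysis was possible because each group has 1 array.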
